A study of Danio rerio with 6 samples.

Results

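The Cyp2 family is a large branch of the cytochrome P450 genes. Genes were taken as members where the gene name, read without regard to case, begins with cyp2 followed by a letter, which gave 40 of the 32057 genes in 12 subfamilies. The cyp2k subfamily holds 10 of them, cyp2aa 9, cyp2x 6, cyp2p 5 and cyp2ad 3, and cyp2ae, cyp2j, cyp2n, cyp2r, cyp2u, cyp2v and cyp2y hold 1 each. No count was recorded for 3 members (cyp2aa3, cyp2x6 and cyp2x8), another 8 had between 4 and 221 counts over all libraries and were too low to be tested, and 29 were tested.

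The genes were measured in RNA of whole kidney marrow (WKM) cells, the blood-forming cells that lie between the nephrons of the zebrafish kidney. WT fish of the AB strain were compared with Tg(drl:hoxa9;hsp70:meis1) fish (Tg), a cross of a line with myc-tagged hoxa9 behind the drl element, which is active in blood cells, and a line with meis1b and GFP behind the heat-inducible hsp70 promoter. Each of the 3 samples of a genotype was a pool of the cells of 3 kidneys, and the labels give an age of 5 months for all fish. The study's methods give about 5 months as well, while its results section gives 3 months for these fish. The sources used here do not state the heat shock schedule of these fish. Libraries held 50767535 to 64888212 counts, so that a count of 0 leaves room for 0.0457 to 0.0606 CPM (counts scaled to library size, and between libraries by TMM), with 3 counts as the limit and counting error alone covered. The labels were checked on the transgenes, with hoxa9a at 0, 0.143 and 0.960 CPM in WT replicates 1, 2 and 3 and at 64.5, 78.1 and 101 CPM in Tg replicates 1, 2 and 3. The row of meis1b, named MEIS1, was expressed in WT too, at 21.4, 24.5 and 26.7 CPM against 77.2, 56.1 and 52.5 CPM in Tg.

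CYP2 enzymes are haem proteins of the endoplasmic reticulum that insert an oxygen atom into their substrates, among them fatty acids, steroids, drugs and pollutants. They draw electrons from P450 oxidoreductase (POR) and in part from cytochrome b5. In vertebrates they are abundant in liver, intestine and kidney tubule, and in fish the family has grown by local duplication into tandem clusters, so that many members are close copies of their neighbours.

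Of the 29 Cyp2 genes tested, cyp2k22 and cyp2y3 fell in Tg and 0 rose (edgeR's quasi-likelihood test, FDR under 0.05 over all 20123 genes tested), and both changed by more than 2-fold. Over all genes 0.373% were called lower and 0.224% higher. At an unadjusted p under 0.05, 10 members were lower and 0 higher, against 10.8% and 9.07% of all genes. DESeq2, which called 6.55% of all genes lower and 2.96% higher, called 10 members lower (cyp2k22, cyp2y3, cyp2ad2, cyp2ad3, CYP2U1, cyp2ae1, cyp2p6, cyp2p9, cyp2x10.1 and cyp2aa2) and 0 higher. It tested 32 members, among them cyp2aa2, which is not one of the 29. In limma-voom 0 were called in either direction, with 10 lower and 0 higher at an unadjusted p under 0.05 (11% and 9.73% of all genes). The call of cyp2k22 was kept without WT replicate 1, where cyp2y3 had an adjusted p of 0.0699, and without any 1 of the other libraries edgeR called 0 members. Few genes of any kind were then called lower, with 2, 1, 0 and 0 of all genes without WT replicates 2 and 3 and Tg replicates 2 and 3, and 60 without Tg replicate 1. At an unadjusted p under 0.05, 9 or 10 members were lower in these fits, against 8.29% to 12.4% of all genes. Without WT replicate 1, 8 members were lower and 1 higher at that p, against 10% and 8.44% of all genes. The fit without WT replicate 1 called 55 of all genes lower and 28 higher. With any 1 library left out, the log2 fold change ran from -2.70 to -1.94 for cyp2k22 and from -2.88 to -2.24 for cyp2y3.

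The log2 fold change was negative in 22 of the 29 tested members, against 49.1% of all genes, and its median was -1.26 against 0.01 over all genes. Without WT replicate 1 that median was -0.73. All 3 Tg pools read below all 3 WT pools in 12 members (14.1% of all genes) and above them in 0 (14.0% of all genes). These shares are not independent of the low-count filter, since 6 of the 29 reached its cutoff in all 3 pools of WT but not of Tg, 3 in all pools of Tg but not of WT, and 19 in all pools of both. Of those 19, 14 had a negative log2 fold change, against 47.2% of all genes that reached the cutoff in all pools of both. The medians were -1.15 and 0.03. Among the 37 members with any count, filtered or not, the mean CPM was lower in Tg in 29, of which 7 were too low to be tested. That count was not made over all genes.

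**Figure D1:**
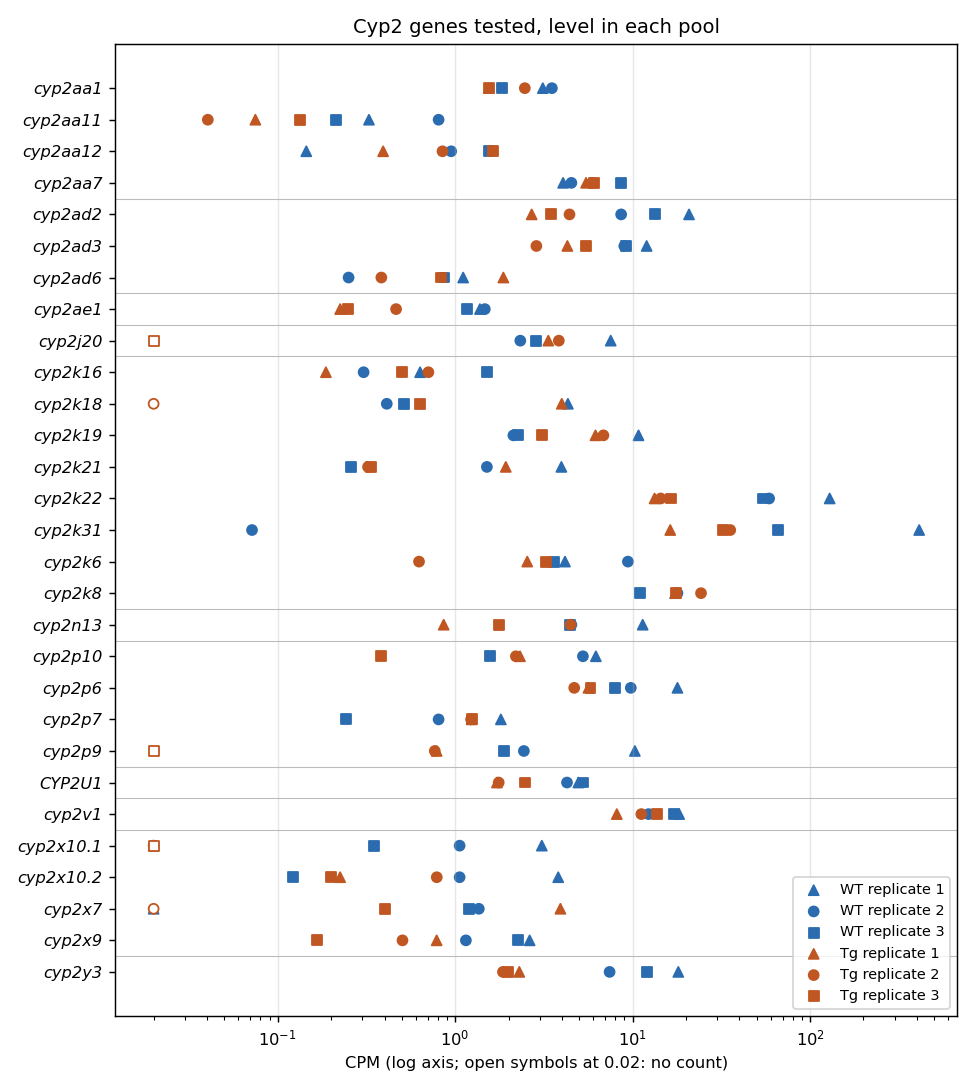
Level of each of the 29 tested Cyp2 genes in each pool, as CPM on a log axis, with blue symbols for WT, orange for Tg, a shape for each replicate number and open symbols for pools without a count. For cyp2k22, cyp2y3, cyp2ad2 and cyp2ae1 the blue and orange symbols stand apart, for cyp2aa7 and cyp2k8 they mix, and cyp2k31 spans 0.0717 to 412 CPM within WT.

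**Figure D2:**
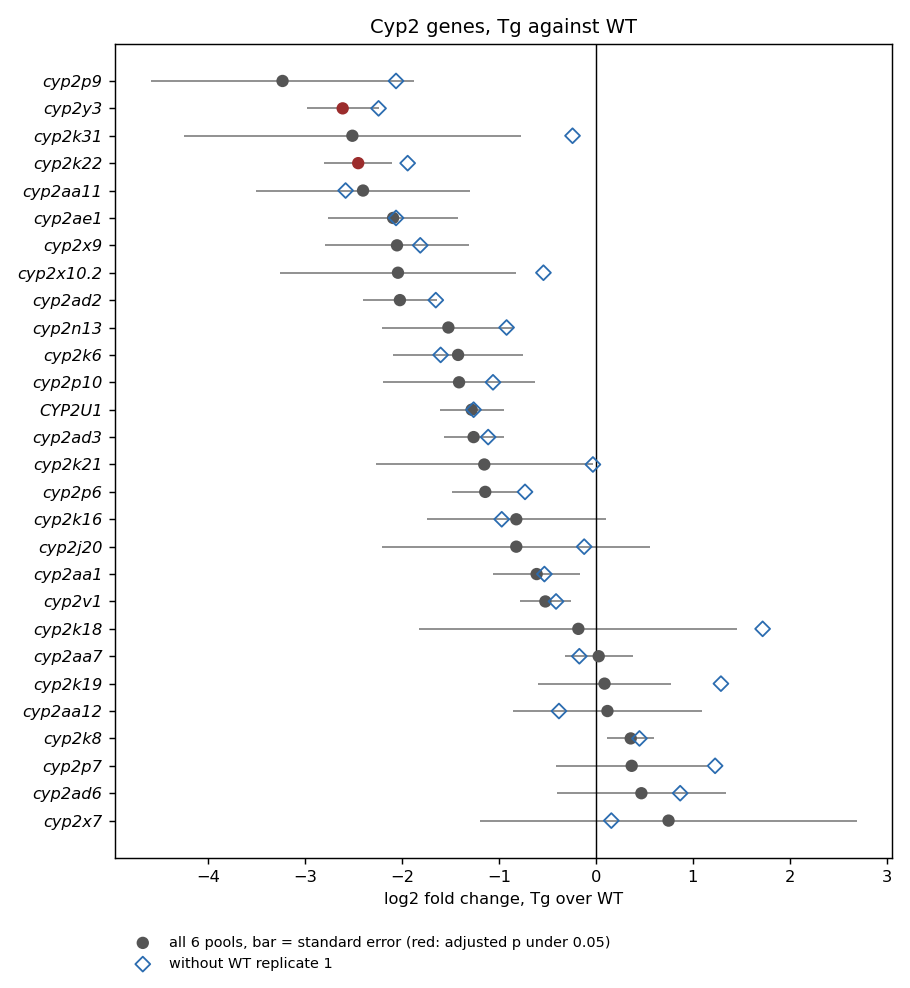
Log2 fold change of Tg over WT for the tested Cyp2 genes from the fit of all 6 pools (filled, line of 1 standard error, red where the adjusted p is under 0.05) and without WT replicate 1 (open blue). cyp2x10.1, without a count in Tg, is not drawn, and cyp2k31 moves from -2.51 to -0.24 when that pool is left out.

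Kidney tubule genes were highest in WT replicate 1 as well. The 25 proximal tubule markers found in the table, none of them at 0 throughout, summed to 6290, 2130 and 2280 CPM in WT replicates 1, 2 and 3 and to 1570, 2110 and 1560 CPM in Tg, with a negative log2 fold change in 22 of 24 tested, a median of -1.08 and 1 gene that fell, SLC13A1, a sulphate transporter. The distal tubule markers summed to 1720, 900 and 991 CPM in WT against 481, 508 and 500 CPM in Tg, with 1 gene that fell among 12 tested, SLC12A3, the thiazide-sensitive salt transporter. At an unadjusted p under 0.05, 12 proximal and 7 distal tubule markers were lower and 0 higher, against 10.8% and 9.07% of all genes. Called lower and higher were 0.373% and 0.224% of all genes. Of the marrow lists, the neutrophil markers summed to 12400 to 21500 CPM in the WT pools and 17000 to 28900 CPM in the Tg pools. Of 7 tested, 3 were higher and 0 lower at an unadjusted p under 0.05, with a median of 0.6. The erythrocyte markers overlapped, at 18200 to 33200 CPM in WT and 12800 to 32200 CPM in Tg, with 0 of 7 tested lower or higher at that p. The B and T cell markers overlapped too, with 3 of 11 tested higher and 0 lower at that p. The haematopoietic progenitor markers were higher in Tg without overlap, at 622, 693 and 692 CPM in WT against 1040, 1220 and 1240 CPM in Tg, and 4 of 10 tested rose (0.224% of all genes). Their list includes the transgene meis1b, which is among those that rose. The liver markers were highest in another pool, at 64.3, 118 and 1150 CPM in WT against 136, 55.3 and 59.6 CPM in Tg. All 14 tested had a negative log2 fold change, with a median of -4.07 and 0 called. Of them 5 were lower and 0 higher at an unadjusted p under 0.05 (10.8% and 9.07% of all genes). The intestine markers went the other way in sum, at 43.1, 20.6 and 39.5 CPM in WT against 50.3, 55.2 and 79.7 CPM in Tg. Of 6 tested intestine markers 1 was called higher and 0 lower (0.224% and 0.373% of all genes), and 4 had a negative log2 fold change. Their median was -0.45, so the higher sum was not shared by most of the list. Another 3 of the 10 listed, cdx1b, chia.2 and FABP6, had no count in any pool. In bulk RNA, fewer cells of a type and less RNA per cell cannot be told apart, and the part of tubule, liver, intestine or progenitor RNA in the Cyp2 values was not tested.

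The cyp2k genes make up the subfamily with the most counts. In rainbow trout an enzyme of this subfamily hydroxylates lauric acid. The leading changed member, cyp2k22 (ENSDARG00000040433), read 129, 58.8 and 54.3 CPM in WT replicates 1, 2 and 3 and 13.3, 14.4 and 16.5 CPM in Tg replicates 1, 2 and 3. Every WT pool was above every Tg pool, and the Tg pools lay close together while WT replicate 1 stood above the other WT pools. The log2 fold change was -2.45 with a standard error (SE) of 0.35 (adjusted p = 0.0448), and -1.94 without WT replicate 1 (adjusted p = 0.0282).

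The widest spread within WT was that of cyp2k31, which had 22718, 4 and 4341 counts in WT and 870, 1759 and 1942 counts in Tg, or 412, 0.0717 and 66.2 CPM against 16.3, 35.5 and 32.4 CPM. The WT pools thus ran from almost none to by far the highest of all 6, with the Tg pools between them. Its log2 fold change of -2.51 had an SE of 1.74 (adjusted p = 0.476). For comparison, cyp2k8 read 17.4, 17.9 and 11 CPM in WT against 17.4, 24.3 and 17.6 CPM in Tg and did not pass the test (log2 fold change 0.36, SE 0.24, adjusted p = 0.468).

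For cyp2k6, which in zebrafish can activate aflatoxin B1, WT pools read 4.16, 9.41 and 3.61 CPM and Tg pools 2.55, 0.626 and 3.25 CPM. The groups did not overlap, though the gap between WT replicate 3 and Tg replicate 3 was small, and the gene did not pass the test (log2 fold change -1.42, SE 0.67, adjusted p = 0.295). The other tested cyp2k genes overlapped between genotypes. In 3 of them the highest of all 6 pools was WT replicate 1: cyp2k19 at 10.8 CPM there against 2.13 and 2.26 in the other WT pools, cyp2k18 at 4.32 against 0.412 and 0.518, and cyp2k21 at 3.97 against 1.51 and 0.259. The Tg pools of cyp2k19 read 6.18, 6.85 and 3.09 CPM, so its log2 fold change was 0.09 with all pools and 1.29 without WT replicate 1. In cyp2k16 the highest pool was WT replicate 3 at 1.52 CPM. Of the untested members, cyp2k20 had 15 counts and cyp2k17 had 8, each in 1 pool.

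Summed over the subfamily, cyp2k reads came to 583, 90.5 and 140 CPM in WT against 61.9, 82.7 and 74.3 CPM in Tg. The mean of WT was 3.71-fold that of Tg with all pools and 1.58-fold without WT replicate 1, and cyp2k31 alone held 54.4% of these counts. With cyp2k31 left out, a choice made after its values were seen, the sums were 171, 90.4 and 73.5 CPM in WT against 45.6, 47.2 and 41.9 CPM in Tg, a ratio of 2.49, or 1.83 without WT replicate 1. The groups did not overlap in either sum.

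The other called gene, cyp2y3 (ENSDARG00000101423), is the only cyp2y gene of the table. It read 18.1, 7.42 and 12 CPM in WT against 2.30, 1.86 and 1.99 CPM in Tg. All Tg pools were within a narrow band below the lowest WT pool. The log2 fold change was -2.61 with an SE of 0.37 (adjusted p = 0.0448), and without WT replicate 1 it was -2.24 (adjusted p = 0.0699). The mean of WT was 6.10-fold that of Tg, or 4.73-fold without that pool.

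In the cyp2ad subfamily 2 of 3 genes did not overlap between genotypes. For cyp2ad2, WT pools read 20.8, 8.62 and 13.4 CPM and Tg pools 2.70, 4.41 and 3.47 CPM. Even the lowest WT pool was well above the highest Tg pool, and the adjusted p was 0.0722 (log2 fold change -2.02, SE 0.38). Its relative cyp2ad3 read 12, 8.98 and 9.20 CPM in WT against 4.29, 2.87 and 5.46 CPM in Tg, also without overlap (log2 fold change -1.26, SE 0.31, adjusted p = 0.106). By contrast, cyp2ad6 overlapped between genotypes, at 1.11, 0.251 and 0.869 CPM in WT against 1.87, 0.384 and 0.834 CPM in Tg. The summed subfamily had a WT mean 2.86-fold that of Tg, and 2.36-fold without WT replicate 1.

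The cyp2p genes have relatives in killifish that oxidise arachidonic acid. The leading one, cyp2p6, read 17.9, 9.77 and 8.00 CPM in WT against 5.64, 4.69 and 5.79 CPM in Tg. The lowest WT pool was above the highest Tg pool, and the gene did not pass the test (log2 fold change -1.14, SE 0.34, adjusted p = 0.140). For cyp2p9 the WT pools read 10.3, 2.44 and 1.89 CPM and the Tg pools 0.787, 0.768 and 0 CPM, again without overlap, with an SE of 1.36 on a log2 fold change of -3.23 (adjusted p = 0.249). The groups overlapped in cyp2p10, at 6.21, 5.25 and 1.57 CPM in WT against 2.32, 2.20 and 0.384 CPM in Tg. They also overlapped in cyp2p7, which was steady in Tg at 1.24, 1.23 and 1.24 CPM and ranged from 0.244 to 1.81 CPM in WT. The untested cyp2p8 had 7 counts in all. Summed, the cyp2p reads were 22.1 ± 12.7 CPM in WT against 8.79 ± 1.33 CPM in Tg (mean ± SD, n = 3 pools each), without overlap, and the ratio of the means was 2.51, or 1.71 without WT replicate 1.

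CYP2U1, whose human counterpart hydroxylates arachidonic acid and other long-chain fatty acids, read 4.95, 4.27 and 5.24 CPM in WT against 1.72, 1.76 and 2.47 CPM in Tg. WT replicate 1 was not the highest WT pool here, the groups were well apart, and the adjusted p was 0.116 (log2 fold change -1.28, SE 0.33). Likewise cyp2ae1 read 1.38, 1.47 and 1.16 CPM in WT against 0.225, 0.465 and 0.250 CPM in Tg, with an adjusted p of 0.163 (log2 fold change -2.09, SE 0.67). For both, leaving out WT replicate 1 hardly moved the ratio of the means, from 2.43 to 2.40 for CYP2U1 and from 4.26 to 4.19 for cyp2ae1. The vitamin D 25-hydroxylase CYP2R1, as it is known in humans, was close to the detection limit, with 34 counts in WT replicate 3, 9 in Tg replicate 1 and 0 in the other pools.

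The remaining single-gene subfamilies overlapped between genotypes. In killifish, CYP2N enzymes oxidise arachidonic acid, and cyp2n13 read 11.4, 4.52 and 4.45 CPM in WT against 0.862, 4.47 and 1.77 CPM in Tg. Here Tg replicate 2 reached the level of the lower WT pools (log2 fold change -1.52, SE 0.68, adjusted p = 0.272). Small differences were seen in cyp2v1, with 18.3, 12.3 and 17.1 CPM in WT against 8.15, 11.2 and 13.8 CPM in Tg (log2 fold change -0.52, SE 0.26, adjusted p = 0.319). For cyp2j20, which shares its subfamily with the human epoxygenase CYP2J2, WT pools read 7.53, 2.33 and 2.86 CPM and Tg pools 3.35, 3.84 and 0 CPM. Tg replicate 3 thus had no count of cyp2j20 while Tg replicates 1 and 2 had 179 and 190.

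Among the cyp2x genes, named after a catfish enzyme that removes methyl groups from drugs, cyp2x10.1 was the only tested Cyp2 gene without a count in a whole genotype. It had 170, 59 and 23 counts in WT, or 3.08, 1.06 and 0.351 CPM, and 0 in each Tg pool. With 3 counts per library as the floor, it was at least 26.9-fold lower in Tg by the means. Without WT replicate 1 it was at least 12.7-fold lower, and both bounds cover counting error alone. It reached the filter cutoff in 3 WT pools and 0 Tg pools, and it did not pass the test (adjusted p = 0.0918). Its namesake cyp2x10.2 read 3.81, 1.06 and 0.122 CPM in WT against 0.225, 0.788 and 0.200 CPM in Tg, with WT replicate 3 the lowest of all 6 pools. The groups did not overlap in cyp2x9, at 2.63, 1.15 and 2.26 CPM in WT against 0.787, 0.505 and 0.167 CPM in Tg (log2 fold change -2.05, SE 0.74, adjusted p = 0.195). In cyp2x7 both genotypes held a pool without a count, at 0, 1.36 and 1.2 CPM in WT against 3.92, 0 and 0.401 CPM in Tg, and the direction turned when Tg replicate 1 was left out (log2 fold change 0.75 with it and -2.07 without).

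In the cyp2aa subfamily WT replicate 1 was the highest WT pool in 0 of the 4 genes tested. The leading one, cyp2aa7, read 4.06, 4.52 and 8.58 CPM in WT against 5.47, 5.96 and 6.06 CPM in Tg, with a log2 fold change of 0.03 (SE 0.35, adjusted p = 0.976). For cyp2aa1 the pools read 3.12, 3.51 and 1.84 CPM in WT against 1.55, 2.47 and 1.55 CPM in Tg. Both genes overlapped between genotypes, as did cyp2aa12 at 0.145 to 1.55 CPM in WT against 0.393 to 1.64 CPM in Tg. The low cyp2aa11 did not overlap, at 0.327, 0.807 and 0.213 CPM in WT against 0.0749, 0.0404 and 0.134 CPM in Tg (log2 fold change -2.40, SE 1.1, adjusted p = 0.282). It reached the filter cutoff in 3 WT pools and 0 Tg pools, so its lack of overlap is not independent of the filter. Below the filter, cyp2aa2 read 2.45, 1.40 and 0.0610 CPM in WT against 0.0749, 0 and 0 CPM in Tg, cyp2aa4 had 105 of its 112 counts in WT replicate 2, cyp2aa9 had all of its 21 counts there, and cyp2aa8 had 4 counts.

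**Figure D3:**
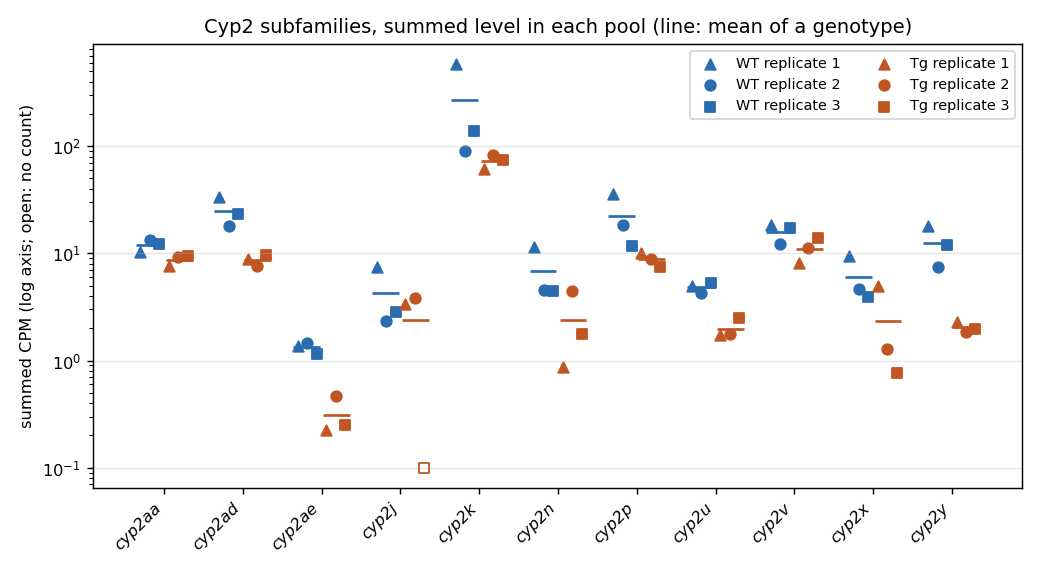
Summed CPM of each Cyp2 subfamily in each pool on a log axis (blue WT, orange Tg, a short line at the mean of a genotype, open symbol for no count, cyp2r not drawn). The pools of the genotypes do not overlap for cyp2aa, cyp2ad, cyp2ae, cyp2k, cyp2p, cyp2u and cyp2y, and the ratio of WT to Tg runs from 1.37 for cyp2aa to 6.10 for cyp2y.

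WT replicate 1 stood apart from the other WT pools in many Cyp2 genes. Among the WT pools it read highest in 19 of the 29 tested members, against 34.2% of all genes, and WT replicates 2 and 3 read highest in 6 and 4. It was the highest of all 6 pools in 18 members, and in 3676 of all 20123 genes tested. The level there was at least 2 times the mean of the other WT pools in 12 members (not counted over all genes), up to 12.4 times in cyp2k31, and only 1.04 times in CYP2U1 and 1.05 times in cyp2ae1. Summed over all members, the WT pools read 734, 177 and 234 CPM and the Tg pools 110, 134 and 122 CPM, or 322, 177 and 168 against 93.8, 98.0 and 89.5 CPM with cyp2k31 left out. The ratio of the means went from 3.13 to 1.69 without WT replicate 1, and with cyp2k31 left out from 2.37 to 1.84. Set against WT replicates 2 and 3 alone, all 3 Tg pools were lower in 12 members, a pattern found in 21.0% of all genes. The proximal tubule markers had the same outlying pool, and the share of the difference that goes with them was not tested.

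The members were also ordered along the chromosomes by the RefSeq annotation of the assembly GRCz12tu, used for gene order alone, since the counts were made on GRCz11. Symbols matched for 38 members, and 33 of these lay in 4 groups with at most 2 other protein-coding genes between neighbours. The group of cyp2n13, cyp2ad6, cyp2ad2, cyp2v1, cyp2ad3, the 5 cyp2p genes and cyp2j20 spans 5 subfamilies and had a negative log2 fold change in 8 of 10 tested genes, from -3.23 in cyp2p9 to 0.47 in cyp2ad6. Its summed level was 107, 55.3 and 59.6 CPM in WT against 31.3, 36.1 and 32.7 CPM in Tg, a ratio of 2.22, or 1.72 without WT replicate 1, and the genotypes did not overlap. The group of 8 cyp2k genes from cyp2k18 to cyp2k6 overlapped between genotypes, with 41.6, 31.6 and 19.2 CPM in WT against 32.3, 32.8 and 25.4 CPM in Tg, a ratio of WT to Tg of 1.02, and of 0.843 without WT replicate 1. The called cyp2k22 lies outside that group, as do cyp2y3, CYP2U1, CYP2R1 and cyp2x10.2, which have no neighbour by this rule among the matched Cyp2 genes. The symbol of cyp2x10.1 had no match, so whether it lies beside cyp2x10.2 is not known. The 10 genes from cyp2aa12 to cyp2ae1 had a ratio of 1.47 without overlap, and the group of cyp2x6 to cyp2x9 overlapped.

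**Figure D4:**
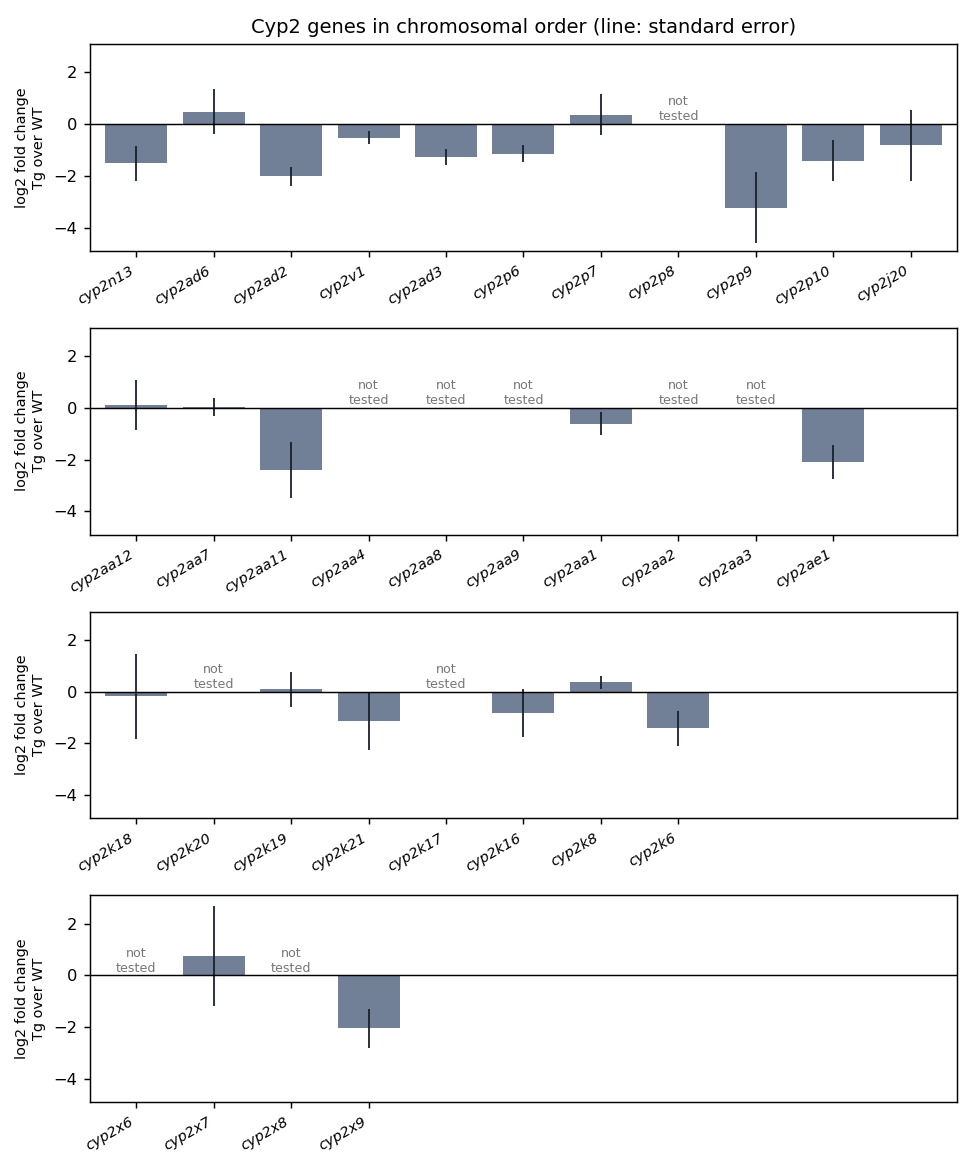
Log2 fold change of Tg over WT (bars, line of 1 standard error) for the Cyp2 genes of the 4 groups of neighbours, in the order of the RefSeq annotation. In the uppermost group 8 of 10 tested genes are below 0, and in the third, the cyp2k genes, 4 of 6 are.

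How the counting step shared reads between near-identical neighbours is not known, so values of single members within a group are less certain than the sums. In cyp2k31, cyp2k18, cyp2j20, cyp2p9 and cyp2x7 a pool had 4 or fewer counts while other pools of its genotype had many more, and whether reads had passed to another copy was not tested. Nor was it tested for cyp2x10.1, which had no count in Tg while cyp2x10.2 had 12, 39 and 12 counts there. Sequences were not compared, and the symbols of cyp2k31 and cyp2x10.1 had no match in the gene order, so their neighbours are not known.

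Other P450 genes and the partners of the family were read from the same fit. Outside Cyp2, 39 P450 genes were tested, with a negative log2 fold change in 13 and a median of 0.39. One of them fell, CYP7A1, which starts the main route from cholesterol to bile acids, at 214, 82.9 and 75.2 CPM in WT against 0.150, 0 and 0.134 CPM in Tg (log2 fold change -10.29, SE 0.87, adjusted p = 0.0198), and 0 rose. All 45 P450 genes outside Cyp2 summed to 878, 570 and 522 CPM in WT against 400, 443 and 371 CPM in Tg. Like the Cyp2 sums, these did not overlap between genotypes and were highest in WT replicate 1. The sums include CYP7A1 and CYP1A1, both far lower in Tg, and sums without these genes were not made. Summed by family, CYP3 and CYP4 overlapped between genotypes. The sums of CYP1 and of the other families, which hold CYP1A1 and CYP7A1, did not. Of the 39 tested, 6 were lower and 2 higher at an unadjusted p under 0.05 (10.8% and 9.07% of all genes). Called lower and higher were 0.373% and 0.224% of all genes. The pollutant-inducible CYP1A1 read 200, 78.3 and 94.1 CPM in WT against 30.6, 34.4 and 30.7 CPM in Tg, without overlap, at an adjusted p of 0.0685. Of the 4 tested CYP1 genes, CYP1A1 alone had a negative log2 fold change, and their median was 0.48. In edgeR 0 were called of the 4 tested CYP3 genes (median 0.61, with 1 higher and 0 lower at an unadjusted p under 0.05, which 9.07% and 10.8% of all genes met) and 0 of the 4 tested CYP4 genes (median 0.68, with 0 higher and 1 lower).

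Of the electron donors of the Cyp2 enzymes, POR read 103, 68.3 and 72.5 CPM in WT against 94.8, 107 and 95.6 CPM in Tg (log2 fold change 0.29, SE 0.18, adjusted p = 0.413). The list of transfer partners covers P450 enzymes at large and includes ferredoxin genes, which are not among the Cyp2 donors named above. Among all 12 tested 0 were called, with 1 lower and 1 higher at an unadjusted p under 0.05 (10.8% and 9.07% of all genes) and a median of -0.13. The lower gene was fdx1 and the higher gene FDX2, both ferredoxins. Among 22 tested receptors and partners that regulate P450 genes, 1 fell and 0 rose (0.373% and 0.224% of all genes), and the median was -0.21. The gene that fell was ahr1a, an aryl hydrocarbon receptor, which read 1.47, 2.17 and 2.88 CPM in WT and had no count in Tg (adjusted p = 0.0474). Without a count in Tg, it could pass the low-count filter through its WT pools alone. Of the other aryl hydrocarbon receptors, ahr2 read 354, 350 and 349 CPM in WT against 390, 545 and 551 CPM in Tg (adjusted p = 0.148). The groups overlapped in ahr1b. In the whole list 3 were lower and 4 higher at an unadjusted p under 0.05, against 10.8% and 9.07% of all genes.

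Of the enzymes that act on P450 products, the lists of eicosanoid and conjugating enzymes were read. Of 17 tested eicosanoid and epoxide enzymes edgeR called 0, with 1 lower and 4 higher at an unadjusted p under 0.05 (10.8% and 9.07% of all genes), and the median was 0.38. The 30 tested conjugating enzymes, which attach glutathione, sulphate or glucuronic acid, had a median of -0.64, with 1 gene that fell and 0 that rose (0.373% and 0.224% of all genes). That gene was gsta.1, a glutathione transferase, at 32.8, 12.8 and 19.6 CPM in WT against 1.93, 0.546 and 0.834 CPM in Tg (log2 fold change -4.30, SE 0.59, adjusted p = 0.0418). At an unadjusted p under 0.05, 12 conjugating enzymes were lower and 1 higher, against 10.8% and 9.07% of all genes.

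**Figure D5:**
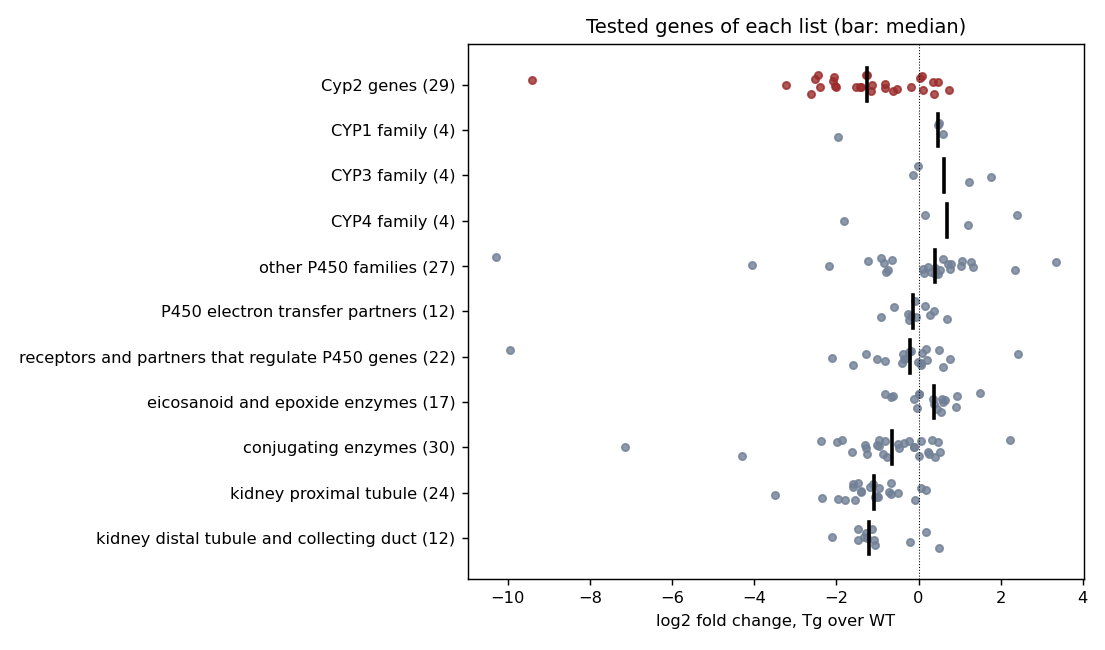
Log2 fold change of Tg over WT for every tested gene of the Cyp2 family (red) and of each other list (grey, number of genes in brackets), with a black bar at the median and the liver, intestine and marrow lists not drawn. The median is -1.26 for the Cyp2 genes, -1.08 and -1.20 for the tubule lists and -0.64 for the conjugating enzymes, while the CYP1, CYP3, CYP4 and other P450 families have medians above 0.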

How the data were processed

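The authors purified poly(A) RNA and, per the submitters' processing notes, used cutadapt 1.9, HISAT2 2.0.4 and StringTie 1.3.4d on the build GRCz11. The table the authors deposited holds raw read counts for each gene, not normalized. How whole-number counts were obtained is not stated in the sources used here. From these counts, genes were filtered with filterByExpr, scaled by TMM and tested for Tg against WT with the quasi-likelihood test of edgeR 4.0.16 (R 4.3.3), and p-values were adjusted by Benjamini-Hochberg across all tested genes. DESeq2 1.42.0, voom of limma 3.58.1, other scalings, no filter, a block on replicate number and leaving out each library served as alternatives. Scripts were tested on simulated data. The p-values measure the spread between pools, which the study calls biological replicates.

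The members and the gene lists were chosen with earlier results of these data known. Named were the called members, up to 15 more by unadjusted p, the 2 most abundant of each subfamily, members absent from 1 genotype, and the transgenes. The called genes of the P450, partner and tubule lists were named as well. Further list genes (POR, CYP1A1, ahr2, ahr1b, fdx1 and FDX2) are named too, and the most abundant genes of several lists are not. Other members are named so that each is accounted for. Names came from a table that covers 28988 IDs, some with the symbol of the human gene. Coding lengths and sequences were not used here, so levels are compared within a gene and not between genes.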

Additional observations from a re-analysis of the deposited data

How the results depend on the processing

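The count of 2 Cyp2 genes lower in Tg was the same with DESeq2 size factors, with library size only, without a filter and at a fold of at least 2. It was 10 with DESeq2, which tested 32 members, 0 with limma-voom, and 0 to 1 when each library was left out in turn. The count of Cyp2 genes called higher stayed at 0. With a replicate block 0 Cyp2 genes were called (11 lower and 0 higher at an unadjusted p under 0.05, against 9.65% and 7.65% of all genes), and 1 gene lower and 0 higher of all genes; deviations of same-numbered pools had correlations of -0.087, -0.135 and 0.129, so that the numbers were not taken as pairs. A negative log2 fold change was found in 21 to 25 of the 29 members under these alternatives. The log2 fold change of cyp2x7 was -1.29 with the replicate block and -2.07 to 1.33 with a library left out, that of cyp2k31 was 0.94 with limma-voom, and that of cyp2aa7 was -0.04 with library size only and -0.17 to 0.42 with a library left out; the causes were not tested.

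With DESeq2, the count lower was 1 for the electron transfer partners, 2 for the regulators, 10 for the conjugating enzymes, 1 for CYP1, 3 for the other P450 families and 4 for all P450 genes outside Cyp2, and the count higher was 2 for the regulators and 1 each for the eicosanoid enzymes, the other P450 families and all P450 genes outside Cyp2. Over all genes DESeq2 called 6.55% lower and 2.96% higher. Leaving out a library gave 0 lower for the regulators in each case, 0 to 1 for the conjugating enzymes, CYP1 and the other P450 families, and 0 to 2 for all P450 genes outside Cyp2. Of all genes, 0 to 60 were called lower in these fits. The 97 alternatives that gave a subfamily or family ratio moved it by less than the spread between pools. For cyp2r no ratio could be formed without WT replicate 3 or without Tg replicate 1, since that genotype then had no count. Leaving out a pool can hardly move a ratio by more than that spread, so this is no measure of stability. Without WT replicate 1 the log2 ratio of Tg to WT went from -1.89 to -0.66 for cyp2k and from -1.65 to -0.76 for all Cyp2 genes. The ratios with cyp2k31 left out, and that of all Cyp2 genes without WT replicate 1, were added after seeing the data. The detection limit set by depth was 0.0457 to 0.0606 CPM per library.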
